A study of Mus musculus with 16 samples.

Results

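The subject is 8 transcription factor genes that set acinar and duct identity in the pancreas: Bhlha15, Ptf1a, Rbpjl, Nr5a2, Gata4, Gata6, Onecut1 and Sox9. They were taken by gene symbol from a table of 24019 genes, and each symbol matched 1 gene. Their transcripts were counted in whole pancreas of 16 mice in 4 groups of 4. The groups were Adam17 ex/ex mice given cerulein, Adam17 ex/ex mice given PBS, WT mice given cerulein and WT mice given PBS. All were littermates on C57BL/6J aged 6 to 8 weeks. Cerulein, a cholecystokinin analogue that overstimulates acinar cells and causes acute pancreatitis, was injected into the peritoneum hourly, 7 times, at 50 µg per kg, and tissue was taken an hour after the last dose. Adam17ex is hypomorphic: it lowers the activity of ADAM17, a protease that sheds proteins from the cell surface. The labels name no Cre or promoter that would limit it to the pancreas or to acinar cells. By their labels 2 mice of each Adam17 ex/ex group were male, as were 1 of the WT mice given cerulein and 0 of those given PBS.

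Acinar cells make digestive enzymes under the control of a small network of transcription factors. PTF1A, a bHLH protein, binds DNA with an E protein and with RBPJ in the embryo, or with its pancreas-restricted relative RBPJL in the adult, and this complex drives enzyme genes and the genes of its own subunits. BHLHA15 (MIST1), another bHLH protein, builds the secretory and granule machinery, while NR5A2, GATA4 and GATA6 stabilise the acinar state. SOX9 and ONECUT1 (HNF6) are known from duct cells and their precursors, and SOX9 appears in acinar cells that turn duct-like after injury.

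Library depth lay between 455547 and 1476159 unique molecular identifiers (UMIs, tags that mark single captured molecules). Levels are given as CPM, the count scaled to depth after TMM normalization between libraries, and 1 UMI was worth 0.681 to 2.60 CPM. Adam17 ex/ex PBS replicates 1 to 3 stood apart. They were the 3 shallowest libraries, and the ribosomal RNA gene CT010467.1 took 7.84% to 9.02% of their UMIs, against 2.02% to 5.04% in the other 13. Calls that change without them are given with and without them. Replicates 1 and 3 were also the only males of their group. Without the 3 the group has 1 library, from a female, which is then taken to vary like the other groups. The enzyme genes that mark acinar tissue were abundant everywhere. The 7 acinar markers summed to 129300 to 163900 CPM in Adam17 ex/ex cerulein and 109660 to 192170 in Adam17 ex/ex PBS libraries. The sums were lower in WT cerulein libraries, at 93334 to 139630 CPM, than in most WT PBS libraries, at 138600 to 189230.

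Of the 8 factors, 7 had enough counts to be tested, and Onecut1, with 57 UMIs in all 16 libraries, did not. In Adam17 ex/ex mice 4 of the 7 passed the test for cerulein against PBS at an adjusted p under 0.05 (edgeR's quasi-likelihood test, Benjamini-Hochberg over all 8236 genes tested), where 30.3% of all tested genes passed, 14.1% as higher and 16.2% as lower. Ptf1a and Nr5a2 rose, and Bhlha15 and Rbpjl fell. Leaving out the 3 shallow libraries left 1 library in the PBS group. Log2 fold changes were then -2.35 for Bhlha15, 1.26 for Ptf1a, -0.66 for Rbpjl and 0.85 for Nr5a2. The calls for Rbpjl and Nr5a2 were lost. In WT mice 4 of 7 passed, against 41.1% of all genes (19.8% higher and 21.3% lower). There Sox9 and Ptf1a rose, and Bhlha15 and Rbpjl fell. Between genotypes under cerulein 2 of 7 differed, against 9.70% of all genes. Under PBS 0 of 7 passed in edgeR, against 1.36% of all genes, with 1 at an unadjusted p under 0.05 and 0 called by DESeq2. For 0 of 7 did the cerulein effect differ between genotypes in edgeR, against 6.02% of all genes (3.75% with a more positive effect in Adam17 ex/ex and 2.27% with a more negative one), with 2 at an unadjusted p under 0.05 and 0 called by DESeq2. On simulated data the test of this difference recovered only 10.526% of the genes given a 2-fold change. The test of genotype under PBS recovered 31.25% of such genes. Both tests can therefore miss changes of this size, and 0 of 7 does not show equal effects or equal levels. Each group of libraries serves in more than 1 of these comparisons. Fewer acinar cells and less transcript per acinar cell cannot be told apart in whole tissue.

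**Figure D1:**
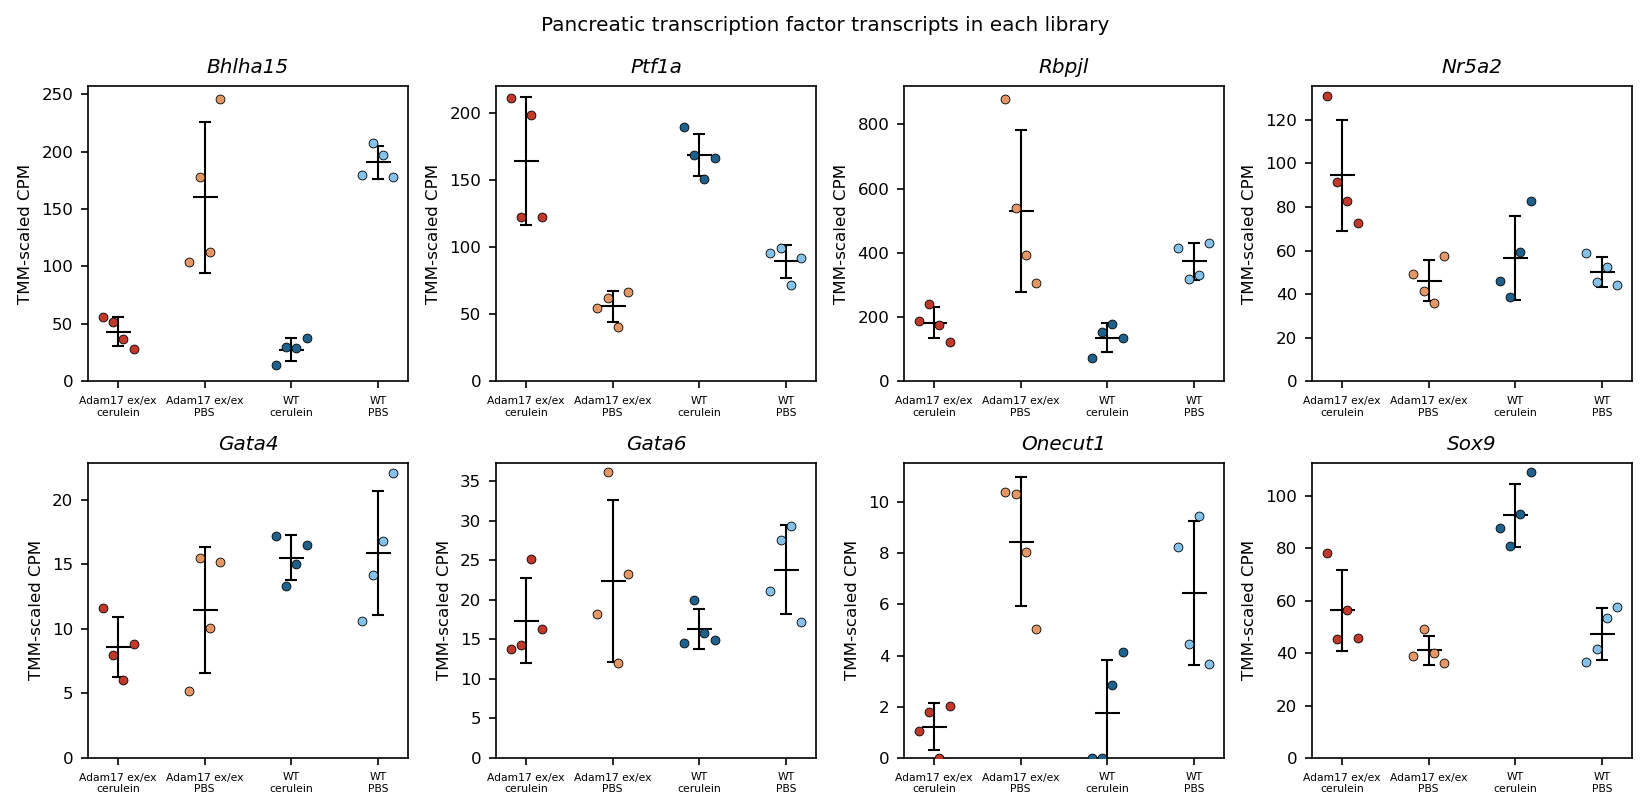
TMM-scaled CPM (y axis) of each of the 8 factors in the 16 libraries, by group (x axis); points are libraries in replicate order, the black bar is the mean and the error bar the SD (n = 4), cut at 0. Bhlha15 and Rbpjl lie lower in all cerulein libraries than in the PBS libraries of the same genotype, and Ptf1a lies higher.

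Bhlha15 (chromosome 5, 144190286 to 144194441, GRCm38, plus strand) showed the largest change with cerulein among the 7 tested members, in Adam17 ex/ex and in WT mice. Adam17 ex/ex cerulein replicates 1 to 4 had 55.9, 51.5, 37.2 and 28.6 CPM, against 104, 178, 113 and 245 CPM in Adam17 ex/ex PBS replicates. The groups did not overlap, as was so for 25.7% of all genes, and the PBS libraries were widely spread, with a coefficient of variation of 41.2%. The fitted log2 fold change was -1.84 ± 0.24 (SE; edgeR adjusted p = 6.22e-06), which leaves 0.279 of the PBS level. It was -2.35 ± 0.33 when only replicate 4 stood for the Adam17 ex/ex PBS group. In WT cerulein replicates it stood at 14.5, 29.9, 28.7 and 38.0 CPM, against 179.8, 207, 197 and 178 CPM in WT PBS replicates. Again the groups did not overlap (39.3% of all genes), and the 4 PBS values lay close together, with a coefficient of variation of 7.41%. Its log2 fold change there was -2.66 ± 0.25 (edgeR adjusted p = 1.46e-08), which leaves 0.158 of the PBS level.

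Under cerulein Bhlha15 averaged 43.3 ± 12.6 CPM in Adam17 ex/ex and 27.8 ± 9.79 CPM in WT (SD, n = 4), and the groups overlapped. The log2 fold change between genotypes was 0.83 ± 0.27 and did not pass (edgeR adjusted p = 0.0511). It passed with no filter on low counts (0.82, edgeR adjusted p = 0.0422), without WT cerulein replicate 4 (0.94, edgeR adjusted p = 0.0487) and without Adam17 ex/ex cerulein replicate 4 (1.19, edgeR adjusted p = 0.00329), and in females alone the value was 0.35 (edgeR adjusted p = 0.625). The cerulein effect in Adam17 ex/ex minus that in WT was 0.82 ± 0.34 on the log2 scale, which did not pass (edgeR adjusted p = 0.156), and it was 0.375 without the 3 shallow libraries. Without Adam17 ex/ex cerulein replicate 4 that difference was 1.11 and passed (edgeR adjusted p = 0.0291). Under PBS the genotypes stood at 160.0 ± 65.9 CPM in Adam17 ex/ex and 190.5 ± 14.1 CPM in WT, with a log2 fold change of 0.01 ± 0.22 that includes the adjustment for sex (edgeR adjusted p = 0.998).

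A list of 8 genes described as MIST1 targets in mouse, drawn up with earlier results of these data known, was read beside Bhlha15. All 8 were tested. In Adam17 ex/ex mice 5 of 8 fell with cerulein, where 16.2% of all tested genes fell. The median log2 fold change was -0.75, against -0.03 over all tested genes. Without the 3 shallow libraries fewer of the 8 passed, and the median was -0.92, against 0.04 over all tested genes. In WT mice all 8 fell, with a median of -1.17, against -0.04 over all tested genes, of which 21.3% fell. Sel1l, a subunit of the ER quality control ligase, had log2 fold changes of -1.78 ± 0.25 in Adam17 ex/ex and -3.09 ± 0.27 in WT mice. Atp2c2, a secretory pathway calcium pump gene, had -1.88 ± 0.34 in Adam17 ex/ex and -2.01 ± 0.31 in WT mice. The granule GTPase gene Rab26 had -1.39 ± 0.33 in Adam17 ex/ex and -1.22 ± 0.31 in WT mice, and Rab3d had -0.64 ± 0.20 and -0.91 ± 0.20. All of these values passed the test, and all but that of Rab3d in Adam17 ex/ex mice (edgeR adjusted p = 0.0533) also did so without the shallow libraries.

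The transport genes Copz2 and Tmed6 had log2 fold changes of -0.06 ± 0.24 and -0.13 ± 0.21 in Adam17 ex/ex mice, and neither passed. These values were -0.74 ± 0.30 (edgeR adjusted p = 0.110) and -0.60 ± 0.28 (edgeR adjusted p = 0.156) without the 3 shallow libraries. Both fell in WT mice, with -1.43 ± 0.23 for Copz2 and -1.11 ± 0.21 for Tmed6. The difference between the genotypes' cerulein effects passed for 3 of the 8 genes, against 6.02% of all genes. It was 1.37 ± 0.33 for Copz2 (edgeR adjusted p = 0.0141), 0.98 ± 0.29 for Tmed6 (edgeR adjusted p = 0.0462) and 1.31 ± 0.35 for Sel1l (edgeR adjusted p = 0.0278). Without the 3 shallow libraries it was 0.79 for Copz2, 0.58 for Tmed6 and 1.43 for Sel1l, and these calls were lost.

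Ptf1a (chromosome 2, 19445663 to 19447501, plus strand) encodes the subunit that gives the PTF1 complex its specificity. Adam17 ex/ex cerulein replicates had 211, 123, 198 and 123 CPM, against 54.6, 62.0, 40.2 and 66.7 CPM in Adam17 ex/ex PBS replicates. The groups did not overlap, and the log2 fold change was 1.53 ± 0.22 (edgeR adjusted p = 1.81e-05). With replicate 4 alone in the Adam17 ex/ex PBS group it was 1.26 ± 0.34 (edgeR adjusted p = 0.0181). WT cerulein replicates had 189, 168, 150.4 and 166 CPM, against 95.2, 99.0, 71.4 and 91.9 CPM in WT PBS replicates. Here too the groups did not overlap, and the log2 fold change was 0.93 ± 0.20 (edgeR adjusted p = 0.000866).

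Between genotypes Ptf1a averaged 163.6 ± 47.6 CPM in Adam17 ex/ex and 168 ± 15.8 CPM in WT under cerulein (SD, n = 4), with a log2 fold change of -0.04 and a 95% interval of -0.47 to 0.40. Under PBS all 4 Adam17 ex/ex libraries lay under all 4 WT libraries, at 55.9 ± 11.6 CPM in Adam17 ex/ex against 89.4 ± 12.4 CPM in WT, an order that 6.24% of all genes shared. The log2 fold change of -0.63 ± 0.24 did not pass (edgeR adjusted p = 0.169), and it was -0.43 without the 3 shallow Adam17 ex/ex libraries.

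Rbpjl (chromosome 2, 164403141 to 164415448, plus strand), the adult DNA-binding partner of PTF1A, moved the other way. Adam17 ex/ex cerulein replicates had 188, 241, 176 and 124 CPM, against 879, 539.6, 394 and 305 CPM in Adam17 ex/ex PBS replicates. All cerulein libraries lay lower, and the 3 shallow PBS libraries all lay above replicate 4. The log2 fold change was -1.52 ± 0.28 (edgeR adjusted p = 0.000339). Without the 3 shallow libraries it was -0.66 ± 0.38 and did not pass (edgeR adjusted p = 0.275). Under the other 28 alternatives, thinning to equal depth among them, the call held. The part of depth and of the ribosomal share in the values of the shallow libraries was not tested further. WT cerulein replicates had 74.2, 154, 179.8 and 136 CPM, against 415, 317, 332 and 430.1 CPM in WT PBS replicates. Replicate 1, the only male among the WT mice, was the lowest of the WT cerulein libraries for both Rbpjl and Bhlha15 and the highest for Ptf1a. Values without this library rest on WT females alone. The groups did not overlap, and on the log2 scale the fall was fitted as -1.48 ± 0.29 (edgeR adjusted p = 0.000246).

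The ratio of Rbpjl to Ptf1a UMIs within a library does not depend on scaling between libraries. Because the 3' ends of different transcripts can be captured unequally, only its difference between groups is read here. It was 0.890, 1.96, 0.891 and 1.01 in Adam17 ex/ex cerulein replicates, against 16.1, 8.71, 9.80 and 4.58 in Adam17 ex/ex PBS replicates. It was 0.392, 0.914, 1.20 and 0.816 in WT cerulein replicates, against 4.36, 3.20, 4.65 and 4.68 in WT PBS replicates. Every cerulein library had a lower ratio than every PBS library, and the Adam17 ex/ex PBS library of normal depth, replicate 4, lay among the WT PBS libraries. The ratio of Bhlha15 to Sox9 UMIs separated the treatments too, at 0.785 ± 0.238 in Adam17 ex/ex cerulein and 3.96 ± 1.91 in Adam17 ex/ex PBS, and at 0.298 ± 0.0922 in WT cerulein and 4.17 ± 0.936 in WT PBS libraries (SD, n = 4). For this ratio the genotypes were also apart under cerulein, with 0.627 to 1.14 in Adam17 ex/ex and 0.165 to 0.370 in WT. These ratios are described without a test.

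**Figure D2:**
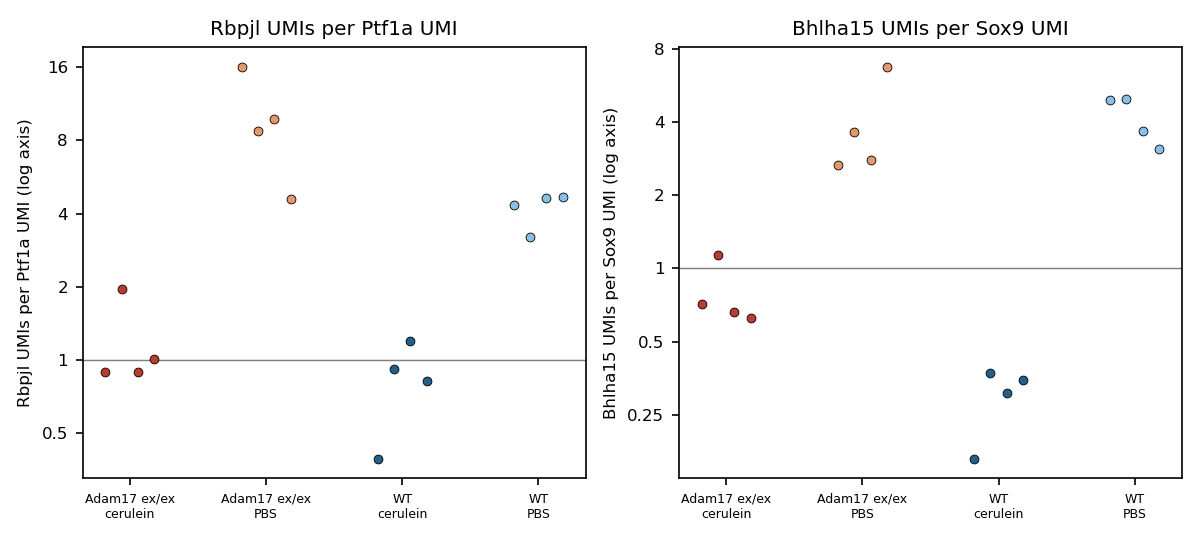
UMIs of Rbpjl per UMI of Ptf1a and UMIs of Bhlha15 per UMI of Sox9 (y axes, log scale) in each library by group (x axis); points are libraries in replicate order and the grey line marks equal counts. All cerulein libraries lie under all PBS libraries in both panels.

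The DNA just before the start of Rbpjl, Ptf1a and Bhlha15, the 3 factors that moved in both genotypes, is shown. PTF1 is known to drive the genes of its own subunits, which include Rbpjl and Ptf1a but not Bhlha15. Whether it acts through these stretches was not tested. A promoter entry was found for 5 of the 8 members. The sequences are from RefSeq, build GRCm38.p6, plus strand, 5′ to 3′, ending at the base before the annotated gene start: chr2:164402944-164403140 for Rbpjl (197 bases), chr2:19445413-19445662 for Ptf1a (250 bases) and chr5:144190036-144190285 for Bhlha15 (250 bases). Capitals mark matches on either strand to CACCTG, an E-box that bHLH proteins can bind (CAGGTG on the other strand), and to TGGGAA, the core that RBPJ and RBPJL recognise.
Rbpjl: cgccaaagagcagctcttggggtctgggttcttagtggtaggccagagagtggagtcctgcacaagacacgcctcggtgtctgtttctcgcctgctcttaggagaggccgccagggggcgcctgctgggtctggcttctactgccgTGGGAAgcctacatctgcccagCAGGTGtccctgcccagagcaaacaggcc
Ptf1a: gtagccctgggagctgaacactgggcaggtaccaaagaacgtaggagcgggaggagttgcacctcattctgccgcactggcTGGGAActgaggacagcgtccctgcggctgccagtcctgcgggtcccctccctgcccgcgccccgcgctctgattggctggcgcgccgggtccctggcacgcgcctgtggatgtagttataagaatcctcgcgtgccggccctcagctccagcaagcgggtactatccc
Bhlha15: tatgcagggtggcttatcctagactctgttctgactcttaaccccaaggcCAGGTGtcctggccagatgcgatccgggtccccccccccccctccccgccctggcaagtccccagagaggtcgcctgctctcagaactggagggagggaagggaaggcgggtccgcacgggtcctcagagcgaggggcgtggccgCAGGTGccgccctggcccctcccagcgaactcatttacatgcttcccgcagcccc
The Rbpjl window held 1 match to each motif, with TGGGAA starting 51 bases and CAGGTG 29 bases before its end. Windows of the same length and place hold CACCTG in 14.3% and TGGGAA in 17.7% of the 32851 promoters in the table. The Ptf1a window held 1 TGGGAA and the Bhlha15 window 2 CAGGTG, and at 250 bases TGGGAA is in 21.6% and CACCTG in 17.2% of promoters. Other motifs searched on both strands had no match in these 3 windows. They were the E-box CAGCTG, present in 10.2% of promoters over 197 bases and in 13% over 250. The E-box CATATG is in 2.93% and 3.46% of them. The NR5A2 core AAGGTCA is in 3.33% and 4.08%. The GATA core AGATAA is in 8.30% and 9.99%. A match is a string of letters and was not tested for binding.

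Rbpj, the embryonic partner that RBPJL replaces, is named here after its values were seen. With 156 UMIs in all libraries it had log2 fold changes of -0.88 ± 0.33 in Adam17 ex/ex (edgeR adjusted p = 0.0471) and -0.95 ± 0.35 in WT mice (edgeR adjusted p = 0.0321). It fell in both genotypes, though without the 3 shallow libraries the value in Adam17 ex/ex mice was -0.77 and did not pass (edgeR adjusted p = 0.353). Of the E protein genes, Tcf4 fell in both genotypes, with log2 fold changes of -1.14 ± 0.21 in Adam17 ex/ex and -1.04 ± 0.21 in WT mice. Tcf4 had -1.03 ± 0.32 in Adam17 ex/ex mice without the 3 shallow libraries. The other E protein genes listed, Tcf3 and Tcf12, had 0.14 ± 0.75 and 0.36 ± 0.34 in that fit, and did not fall. Across the list of 28 partners and co-regulators, 20 were tested. In Adam17 ex/ex mice 5 rose and 6 fell, with a median log2 fold change of -0.21, against 14.1% and 16.2% of all genes. In WT mice 5 rose and 5 fell, with a median of 0.34, against 19.8% and 21.3% of all genes. Over the 25 tested without the 3 shallow libraries, the median in Adam17 ex/ex mice was 0.05, against 0.04 over all tested genes, and fewer passed. Hes1, a Notch effector that represses acinar differentiation, rose by 1.06 ± 0.28 in Adam17 ex/ex (0.65 without the shallow libraries, edgeR adjusted p = 0.367) and by 1.51 ± 0.26 in WT mice. Ets2, an ETS factor gene, rose by 1.09 ± 0.21 in Adam17 ex/ex and by 1.00 ± 0.20 in WT mice. The Notch receptor gene Notch2 had -0.49 ± 0.45 in Adam17 ex/ex mice and rose by 1.58 ± 0.50 in WT mice, a difference of -2.07 ± 0.67 that did not pass (edgeR adjusted p = 0.0698). Without the shallow libraries the value in Adam17 ex/ex mice turned to 0.67 ± 0.70 and the difference was -0.89 ± 0.85 (edgeR adjusted p = 0.674). Foxp2, a forkhead factor gene, had log2 fold changes of -2.91 ± 0.45 in Adam17 ex/ex and -4.32 ± 0.48 in WT mice.

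Nr5a2 (chromosome 1, 136842571 to 136960448, minus strand) encodes the nuclear receptor LRH-1, which acts with PTF1 on enzyme genes. Adam17 ex/ex cerulein replicates had 131, 91.5, 82.8 and 72.9 CPM, against 49.4, 41.3, 36.2 and 57.6 CPM in Adam17 ex/ex PBS replicates. All cerulein libraries lay above all PBS libraries, and the log2 fold change was 1.01 ± 0.24 (edgeR adjusted p = 0.00269). It was 0.85 ± 0.37 without the 3 shallow libraries (edgeR adjusted p = 0.138) and 1.02 in females alone (edgeR adjusted p = 0.0503), and passed in neither. WT cerulein replicates had 46.1, 38.8, 59.5 and 82.7 CPM, against 58.8, 45.4, 52.5 and 44.1 CPM in WT PBS replicates. These overlapped, and the log2 fold change of 0.25 ± 0.23 did not pass (edgeR adjusted p = 0.392; 95% interval -0.25 to 0.76).

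Under cerulein Nr5a2 was higher in Adam17 ex/ex, at 94.5 ± 25.4 CPM against 56.8 ± 19.3 CPM in WT (SD, n = 4), a log2 difference of 0.79 ± 0.22 (edgeR adjusted p = 0.0232). WT cerulein replicate 4 lay within the Adam17 ex/ex range. The call was lost without WT cerulein replicate 1, 2 or 3 (0.71, 0.65 and 0.76) or Adam17 ex/ex cerulein replicate 1 or 2 (0.59 and 0.75), in females alone (0.72, edgeR adjusted p = 0.217), after thinning to equal depth (0.65, edgeR adjusted p = 0.166) and with library totals in place of scaling factors (0.51, edgeR adjusted p = 0.195). The difference between the genotypes' cerulein effects, 0.75 ± 0.33, did not pass (edgeR adjusted p = 0.178). Among the partner genes Foxa3, a forkhead factor gene, had 134.6 ± 13.1 CPM in Adam17 ex/ex cerulein, 42.1 ± 13.5 in Adam17 ex/ex PBS, 70.1 ± 20.8 in WT cerulein and 46.1 ± 8.29 in WT PBS libraries. It rose in both genotypes, with log2 fold changes of 1.70 ± 0.23 in Adam17 ex/ex and 0.65 ± 0.22 in WT mice, and was higher in Adam17 ex/ex under cerulein by 0.98 ± 0.21. Its difference in cerulein effect, 1.05 ± 0.32, missed the threshold (edgeR adjusted p = 0.0507). Foxa2 fell in both, with -1.23 ± 0.26 in Adam17 ex/ex and -0.59 ± 0.21 in WT mice, and was lower in Adam17 ex/ex under cerulein, with -1.23 ± 0.24.

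**Figure D3:**
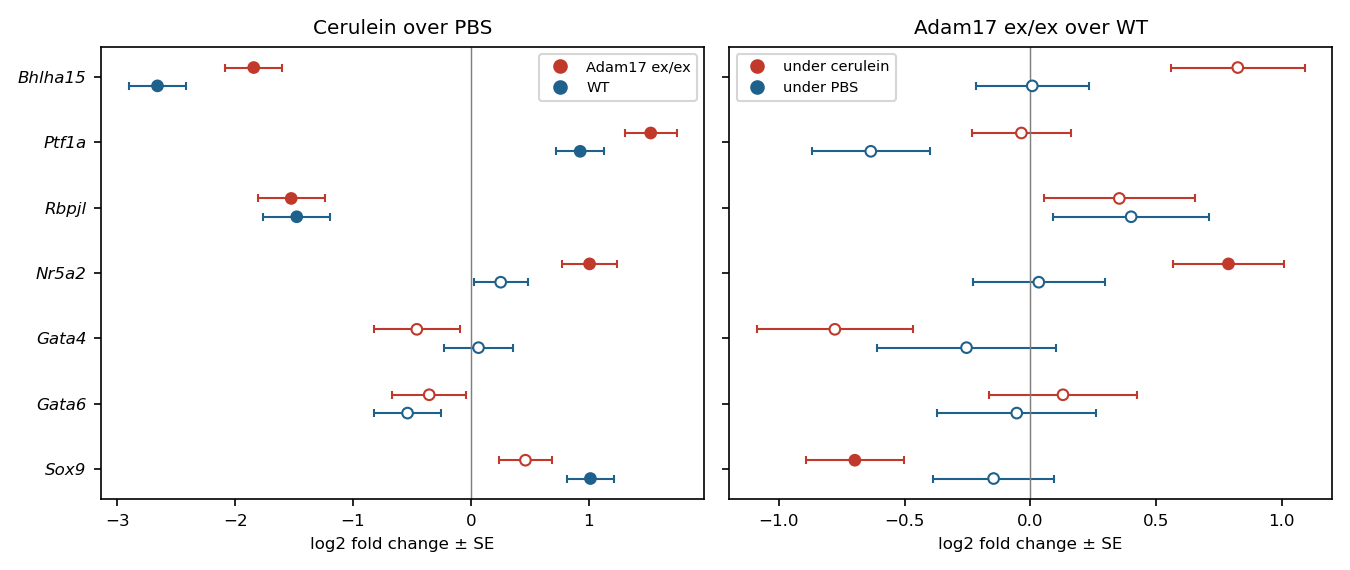
Log2 fold change (x axis) with SE for the 7 tested factors, on the left for cerulein over PBS in Adam17 ex/ex (red) and WT mice (blue), on the right for Adam17 ex/ex over WT under cerulein (red) and under PBS (blue); filled points passed edgeR's test at an adjusted p under 0.05. Bhlha15, Ptf1a and Rbpjl are filled for cerulein in both genotypes, Nr5a2 in Adam17 ex/ex and Sox9 in WT mice.

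The GATA factor genes were counted rarely, with 200 UMIs of Gata4 (chromosome 14, 63198922 to 63271692, minus strand) and 295 of Gata6 (chromosome 18, 11052064 to 11085635, plus strand) over all libraries. Both encode zinc finger proteins needed to form and keep acinar tissue. Gata4 averaged 8.62 ± 2.32 CPM in Adam17 ex/ex cerulein, 11.5 ± 4.87 in Adam17 ex/ex PBS, 15.5 ± 1.73 in WT cerulein and 15.9 ± 4.83 in WT PBS libraries (SD, n = 4). Under cerulein all 4 Adam17 ex/ex libraries lay under all 4 WT libraries, at 11.6, 8.00, 6.00 and 8.86 CPM in Adam17 ex/ex against 17.2, 13.3, 15.04 and 16.5 CPM in WT, as was so for 7.92% of all genes. The log2 fold change was -0.78 ± 0.31 and did not pass (edgeR adjusted p = 0.122). With library totals in place of scaling factors it was -1.04 and passed (edgeR adjusted p = 0.0485).

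Gata6 averaged 17.4 ± 5.35 CPM in Adam17 ex/ex cerulein, 22.4 ± 10.2 in Adam17 ex/ex PBS, 16.3 ± 2.51 in WT cerulein and 23.8 ± 5.67 in WT PBS libraries. Its groups overlapped in each comparison, and the log2 fold change for cerulein was -0.35 ± 0.31 in Adam17 ex/ex (95% interval -1.04 to 0.34) and -0.54 ± 0.28 in WT mice (-1.16 to 0.09). Zfpm1, which encodes the GATA cofactor FOG1, fell, with log2 fold changes of -1.24 ± 0.32 in Adam17 ex/ex (-1.09 without the 3 shallow libraries, edgeR adjusted p = 0.178) and -1.05 ± 0.32 in WT mice.

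Sox9 (chromosome 11, 112782224 to 112787760, plus strand) encodes the duct and progenitor factor. Adam17 ex/ex cerulein replicates had 78.1, 45.3, 56.4 and 45.6 CPM, against 39.0, 49.1, 40.2 and 36.4 CPM in Adam17 ex/ex PBS replicates. Here 2 of the cerulein libraries lay within the PBS range, and the log2 fold change of 0.46 ± 0.22 did not pass (edgeR adjusted p = 0.120; 95% interval -0.03 to 0.96). Without Adam17 ex/ex cerulein replicate 4 it was 0.66 and passed (edgeR adjusted p = 0.0415), and without the 3 shallow libraries it was 0.72 and did not (edgeR adjusted p = 0.198). WT cerulein replicates had 87.7, 80.8, 93.1 and 109 CPM, against 36.4, 41.7, 53.5 and 57.6 CPM in WT PBS replicates. The groups did not overlap, and the log2 fold change was 1.02 ± 0.20 (edgeR adjusted p = 0.000289).

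Under cerulein Sox9 was lower in Adam17 ex/ex, and all 4 libraries lay under all 4 of WT, at 56.4 ± 15.4 CPM in Adam17 ex/ex against 92.7 ± 12.04 CPM in WT (SD, n = 4). The log2 fold change was -0.70 ± 0.19 (edgeR adjusted p = 0.0238). The call was lost without WT cerulein replicate 1 or 4 (-0.70 and -0.65) or Adam17 ex/ex cerulein replicate 2 or 4 (-0.64 and -0.54), and in females alone (-0.64). The cerulein effect of Adam17 ex/ex minus that of WT was -0.55 ± 0.30 and did not pass (edgeR adjusted p = 0.292), so the effects are not shown to differ.

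Onecut1 (chromosome 9, 74861921 to 74891781, plus strand), the other duct-associated factor, had 1, 2, 0 and 3 UMIs in Adam17 ex/ex cerulein replicates, against 4, 4, 4 and 5 in Adam17 ex/ex PBS replicates, most of which were shallower. WT cerulein replicates had 0, 0, 4 and 5 UMIs, against 7, 6, 9 and 3 in WT PBS replicates. Summed over the group these were 6 UMIs in Adam17 ex/ex cerulein (exact Poisson 95% interval 2.20 to 13.1, counting error only) and 17 in Adam17 ex/ex PBS (9.90 to 27.2). They were 9 in WT cerulein (4.12 to 17.1) and 25 in WT PBS (16.2 to 36.9). In CPM the Adam17 ex/ex groups did not overlap, as was so for 25.7% of all tested genes. The 3 shallow PBS libraries had 10.4, 10.3 and 8.04 CPM, and PBS replicate 4 had 5.05. The group means were 1.22 ± 0.914 in Adam17 ex/ex cerulein and 8.45 ± 2.52 in Adam17 ex/ex PBS (exact two-sided permutation p = 0.0286, the smallest that 4 against 4 allows). They were 1.75 ± 2.09 in WT cerulein and 6.45 ± 2.81 in WT PBS (exact two-sided permutation p = 0.0571). Adjusted over the 4 Onecut1 comparisons both were 0.114, and neither passed. A comparison at the smallest possible p could not pass this adjustment on its own, so no conclusion is drawn from it. With no filter on low counts edgeR estimated -2.29 ± 0.71 on the log2 scale in Adam17 ex/ex (adjusted p = 0.0146) and -1.55 ± 0.63 in WT mice (adjusted p = 0.0785). Between genotypes the groups overlapped under cerulein (exact two-sided permutation p = 0.657) and under PBS (exact two-sided permutation p = 0.286). These Onecut1 tests were chosen after its counts were seen.

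Duct and metaplasia genes were read beside Sox9. Of 21 listed genes 18 were tested. In Adam17 ex/ex mice 8 rose and 0 fell, with a median log2 fold change of 0.65, where 14.1% of all genes rose and 16.2% fell. Over the 20 tested without the 3 shallow libraries the median was 0.80, against 0.04 over all tested genes, and fewer passed. In WT mice 12 rose and 4 fell, with a median of 2.22, where 19.8% of all genes rose and 21.3% fell. Under cerulein 10 were lower and 2 higher in Adam17 ex/ex, with a median of -0.97, against 0.01 over all tested genes, of which 3.85% were lower. Krt19, the duct keratin gene, rose by 1.34 ± 0.21 in Adam17 ex/ex and by 3.42 ± 0.21 in WT mice. Cldn4, a tight junction gene, had 0.54 ± 0.45 in Adam17 ex/ex mice and rose by 4.46 ± 0.31 in WT mice. The osteopontin gene Spp1 had -0.58 ± 0.23 in Adam17 ex/ex mice, which did not pass (edgeR adjusted p = 0.0578; -0.13 ± 0.32 without the shallow libraries, edgeR adjusted p = 0.843), and rose by 1.56 ± 0.22 in WT mice. In the test of the difference, 9 of the 18 had a lower log2 fold change in Adam17 ex/ex and 0 a higher one. Of all genes 2.27% had a lower and 3.75% a higher one. The median difference was -1.02 over the 18. With those 3 shallow libraries left out it was -0.83 over the 20 then tested, against 0.08 over all tested genes. Krt19 had -2.21 and Spp1 -1.74, and fewer of the genes passed. The 4 tested duct cell markers did not move together. In Adam17 ex/ex mice Krt19 and the carbonic anhydrase gene Car2 rose (Car2 by 1.18 ± 0.38, against 0.47 without the shallow libraries, which did not pass, edgeR adjusted p = 0.651). In WT mice Krt19 and the keratin gene Krt7 rose and Pkhd1, a gene of the primary cilium, fell, with -1.58 ± 0.42. Under cerulein Krt19 and Krt7 were lower in Adam17 ex/ex, by log2 fold changes of -1.89 ± 0.19 and -1.56 ± 0.28, and Car2 was higher, by 1.67 ± 0.38. Krt19, the most abundant of them, averaged 151 ± 28.7 CPM in Adam17 ex/ex cerulein, 58.7 ± 13.9 in Adam17 ex/ex PBS, 554 ± 87.3 in WT cerulein and 51.0 ± 8.33 in WT PBS libraries (SD, n = 4). The share of duct cells in the Sox9 values was not tested.

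Acinar secretory products, genes that PTF1 and NR5A2 are known to act on, were read next. All 27 listed genes were tested. In Adam17 ex/ex mice 1 fell and 2 rose, with a median log2 fold change of -0.05. The median was also -0.05 without the 3 shallow libraries. In WT mice 10 fell and 2 rose, with a median of -0.39. Of all tested genes 16.2% fell and 14.1% rose in Adam17 ex/ex mice, with a median of -0.03. In WT mice 21.3% of them fell and 19.8% rose, with a median of -0.04. The colipase gene Clps had -0.34 ± 0.22 in Adam17 ex/ex mice and fell in WT mice with -1.55 ± 0.22. Rnase1, the pancreatic ribonuclease gene, fell in both, with -0.56 ± 0.21 in Adam17 ex/ex (-0.52 without the 3 shallow libraries, edgeR adjusted p = 0.240) and -1.68 ± 0.22 in WT mice. Zg16, a granule lectin gene, had -0.22 ± 0.22 in Adam17 ex/ex mice and fell in WT mice with -1.07 ± 0.22. The trypsinogen genes Prss1 and Prss3 rose in both, by 2.34 ± 0.30 and 1.83 ± 0.41 in Adam17 ex/ex and by 2.29 ± 0.30 and 2.23 ± 0.40 in WT mice, though near-identical family members can share their reads. Under cerulein 6 of 27 were higher in Adam17 ex/ex (5.85% of all genes were higher) and 0 lower. The difference in cerulein effect passed for 3 of 27, all with a more positive effect in Adam17 ex/ex, as for 3.75% of all genes. They were Rnase1 at 1.12 ± 0.30, Clps at 1.21 ± 0.31 and the lipase-related gene Pnliprp2 at 1.08 ± 0.31. Leaving out the 3 shallow libraries gave 1.19, 1.24 and 0.94, and these calls were lost.

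**Figure D4:**
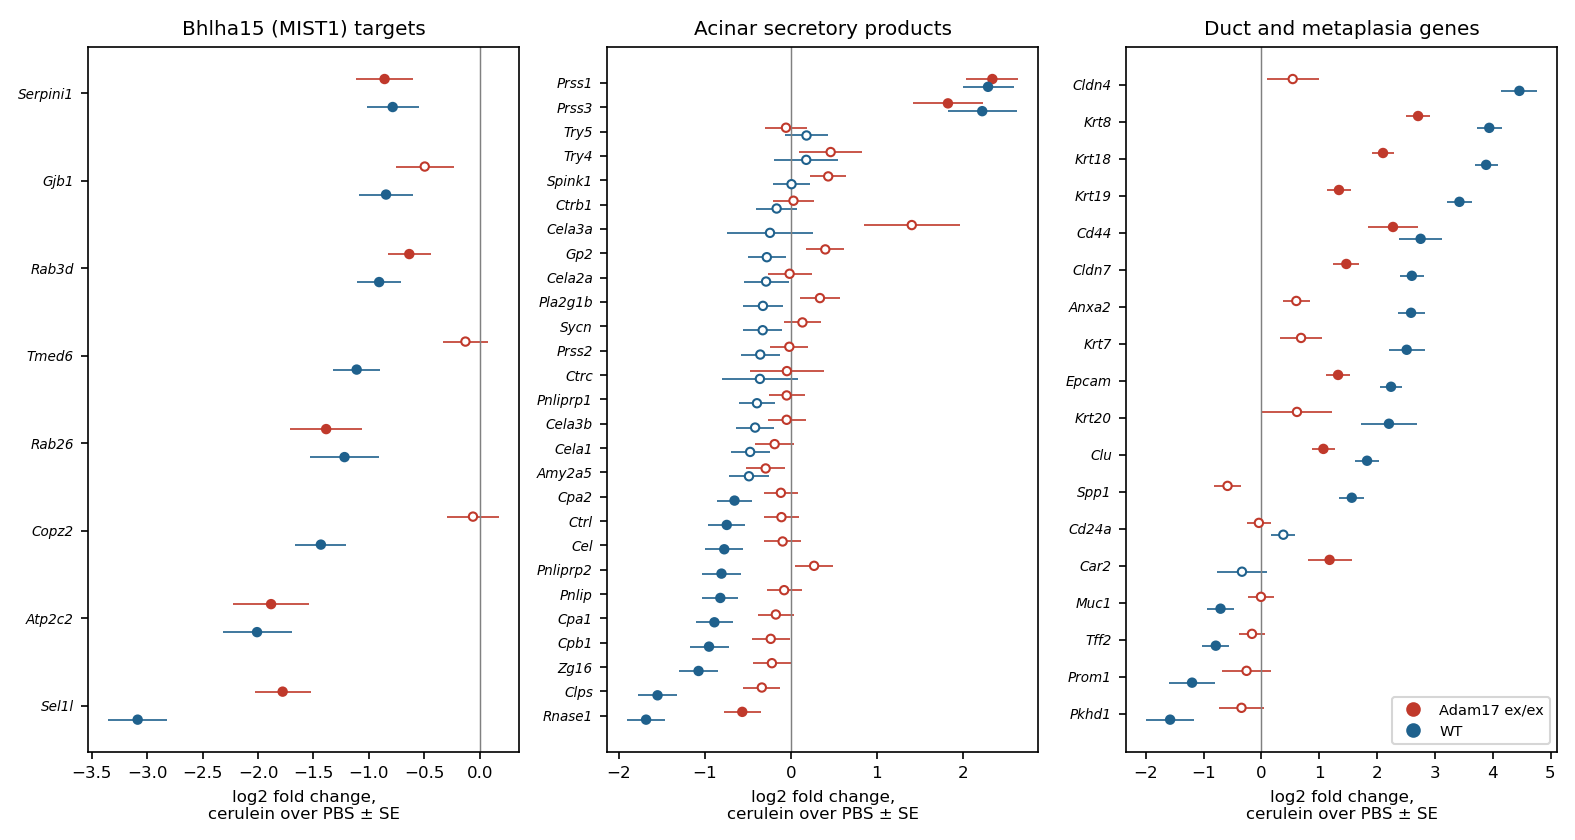
Log2 fold change of cerulein over PBS (x axis) with SE for the tested genes of 3 lists, in Adam17 ex/ex (red, upper of each pair) and WT mice (blue); filled points passed edgeR's test, and genes are ordered by the WT value. All 8 MIST1 targets are filled in WT mice and 5 of 8 in Adam17 ex/ex mice, and Cldn4 and Spp1 are filled in WT mice alone.

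The genes whose log2 CPM followed a factor most closely over the 16 libraries were found by Pearson correlation, which mixes differences between groups with those within them and is given as a description. For Bhlha15 they were Msrb1 (0.97), Suclg2 (0.96) and Sel1l (0.96). Sel1l averaged 227 ± 50.2 CPM in Adam17 ex/ex cerulein, 793 ± 184 in Adam17 ex/ex PBS, 108 ± 42.4 in WT cerulein and 942 ± 155 in WT PBS libraries, the same order of groups as Bhlha15. For Ptf1a they were Rhou (0.93), Wdr77 (0.91) and Lyar (0.91), and for Rbpjl they were Asph (0.96), Kmt2c (0.94) and Trappc10 (0.94). Sox9 was followed by Tubb4b (0.91), Furin (0.90) and Zfand2a (0.90), and Nr5a2 by Foxa3 (0.84), Fut1 (0.82) and Eef1a1 (0.82). For the rarely counted Gata4 and Gata6 the closest genes were Fam136a (0.88) and Edaradd (0.84). Among the members themselves Bhlha15 and Rbpjl had 0.82, Ptf1a had -0.81 with Rbpjl and -0.74 with Bhlha15, and Ptf1a and Sox9 had 0.73.

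Markers of other cell types differed between libraries too. The 10 islet markers summed to 1771 to 6217 CPM in Adam17 ex/ex cerulein, 5096 to 22174 in Adam17 ex/ex PBS, 1342 to 9188 in WT cerulein and 4305 to 13358 in WT PBS libraries. Of the 9 tested, 7 fell with cerulein in Adam17 ex/ex mice and 0 in WT mice by edgeR. Of all genes 16.2% and 21.3% fell in these genotypes. The median log2 fold change of islet markers in Adam17 ex/ex mice was -1.85, and 0.07 over those tested without the 3 shallow libraries. Fibroblast and stellate markers, 8 in number, summed to 347 to 510.3 CPM in Adam17 ex/ex cerulein and 471 to 1429 in Adam17 ex/ex PBS libraries. The sums were 217 to 319 in WT cerulein and 211 to 558 in WT PBS libraries. Of 6 tested, 5 fell in Adam17 ex/ex and 1 in WT mice. Their median log2 fold change in Adam17 ex/ex mice was -1.21, and -1.03 over those tested without the shallow libraries. The 7 adipocyte markers summed to 77.7 to 411 CPM in Adam17 ex/ex cerulein, 166 to 884 in Adam17 ex/ex PBS, 40.1 to 68.7 in WT cerulein and 56.7 to 467 in WT PBS libraries, with Lep at 0 in both cerulein groups and Plin1 in WT cerulein. Of the adipocyte markers 3 of 4 tested fell in Adam17 ex/ex and 4 of 4 in WT mice. Their median in Adam17 ex/ex mice was -2.13, and -3.79 over those tested without the shallow libraries. The 7 B and plasma cell markers summed to 8.44 to 172 CPM in Adam17 ex/ex cerulein, 28.6 to 735 in Adam17 ex/ex PBS, 8.60 to 44.3 in WT cerulein and 24.1 to 978 in WT PBS libraries, with Cd79a at 0 in both cerulein groups and Cd79b and Ms4a1 in WT cerulein. All 3 that were tested fell in both genotypes. Their median in Adam17 ex/ex mice was -3.29, and -4.21 over those tested without the shallow libraries, where fewer passed. The 6 macrophage markers summed to 76.4 to 142 CPM in Adam17 ex/ex cerulein, 98.8 to 693 in Adam17 ex/ex PBS, 105 to 165 in WT cerulein and 54.6 to 295 in WT PBS libraries. Of 4 tested, 2 fell in Adam17 ex/ex, and 0 fell and 1 rose in WT mice. Their median in Adam17 ex/ex mice was -1.13, and 0.39 over those tested without the shallow libraries. Of the endothelial markers 0 of 3 tested fell in Adam17 ex/ex and 1 of 3 in WT mice. An alternative chosen after the data were seen left out WT PBS replicates 1 and 2 and Adam17 ex/ex cerulein replicate 3. Their adipocyte markers were high within their own groups. Adam17 ex/ex PBS replicates 3 and 4, with the highest sums of all libraries (884 and 687 CPM), were kept. Bhlha15 then had -1.83 in Adam17 ex/ex and -2.61 in WT mice, Ptf1a 1.44 and 1.12, and Rbpjl -1.43 and -1.49. All of these passed. The part of other cell types in the factors' values was not tested further.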

How the data were processed

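RNA from frozen pancreas was sequenced after poly(A) priming with molecular tags, per the labels' protocols, so counts report mostly 3' ends. The authors deposited whole-number UMI counts per gene and library, not normalized. GRCm38 is the build in the submitters' processing notes, which also list edgeR 3.36.0, limma 3.50.0 and R 4.1.2. The aligner is not given in the sources used here. The labels give replicate numbers and no batch. They also carry a code of no stated meaning, and if it marks cohorts, cohort and group cannot be told apart. The edgeR p-values set differences between groups against the spread between libraries within groups, estimated over all 16 libraries.

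The counts were fitted with edgeR 4.0.16 in R 4.3.3 (filterByExpr with a minimum count of 10, TMM, glmQLFit and glmQLFTest, 1 coefficient per group plus sex over 16 libraries, 11 residual degrees of freedom), and the fit was tested on simulated data. Log2 CPM used a prior count of 2. DESeq2 1.42.0 was an alternative. Members, lists and tests were chosen with earlier results of these data known. Genes were named from each list by the smallest p, up to 6 for cerulein in WT and up to 4 for genotype under cerulein, and not all of them are printed; likeness takes the 3 highest correlations. All 24 replicate pairs within groups differed by more than sampling noise (chi-square per degree of freedom 3.06 to 9.50). Summed duct markers are not reported here.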

Additional observations from a re-analysis of the deposited data

How the results depend on the processing

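The calls for Bhlha15, Ptf1a, Rbpjl and Sox9 with cerulein in WT mice, and for Bhlha15 and Ptf1a in Adam17 ex/ex mice, kept their direction and passed under all 29 alternatives. Calls of members that did not hold are given beside their results, and the cause was not tested. Without the 3 shallow Adam17 ex/ex PBS libraries that group had 1 library. The calls for Rbpjl and Nr5a2 with cerulein in Adam17 ex/ex mice then did not hold. Under cerulein 1 member differed between genotypes after thinning to equal depth and 0 in females alone. Genes called for cerulein in WT were 2087 with a minimum count of 30 and 2083 after thinning. For cerulein in Adam17 ex/ex they were 1550 with that minimum, 1518 after thinning, 1422 in females and 1360 without the shallow libraries. For genotype under cerulein they were 424 after thinning and 273 in females. Under PBS they were 24 with library totals, 331 with no filter, 406 with no sex term, 234 by DESeq2, 14 with only the groups compared, 22 in females, 15 without the shallow libraries, 52 without the 3 libraries of high adipocyte markers and 56 after thinning. For the difference in cerulein effect they were 312 with library totals, 82 in females, 152 without the shallow libraries, 281 without the high adipocyte libraries and 270 after thinning.

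With library totals the median log2 fold change of all genes was 0.19 for cerulein in WT, with 2089 higher and 1177 lower against 1631 and 1757 with TMM. It was -0.25 for genotype under cerulein, with 228 higher and 611 lower against 482 and 317, and -0.23 for the difference in effect, with 117 and 195 against 309 and 187.

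Only log2 fold changes that had not passed changed sign. Gata4 with cerulein in WT was -0.018 with no sex term, -0.063 with only the groups compared, -0.036 in females and -0.22 without the high adipocyte libraries. Between genotypes under cerulein, females gave Ptf1a 0.031, Rbpjl -0.019 and Gata6 -0.13, and Gata6 was -0.11 with library totals, -0.085 without the high adipocyte libraries and -0.34 after thinning. Under PBS Bhlha15 was -0.043 with library totals, -0.11 with no filter and -0.22 with no sex term, and Nr5a2 was -0.018, -0.084 and -0.085 in the same order. Under PBS Rbpjl was -0.30 without the shallow libraries and Sox9 0.23 after thinning, and Gata6 was 0.23 with only the groups compared, 0.19 in females, 0.044 without the high adipocyte libraries and 0.10 after thinning. For the difference in cerulein effect Rbpjl was 0.083 with no filter, 0.79 without the shallow libraries and 0.059 without the high adipocyte libraries, and Gata6 was -0.32 in females, -0.13 without the high adipocyte libraries and -0.44 after thinning.

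Leaving out 1 library at a time gave 402 to 913 genes for genotype under cerulein, 30 to 370 under PBS and 239 to 624 for the difference in effect, with 4 to 5 members called for cerulein in Adam17 ex/ex, 0 to 2 for genotype under cerulein and 0 to 1 for the difference. Values that changed sign ranged from -0.061 to 0.27 for Gata4 with cerulein in WT. For genotype under cerulein they ranged from -0.22 to 0.13 for Ptf1a, -0.083 to 0.55 for Rbpjl and -0.076 to 0.28 for Gata6. Under PBS the ranges were -0.31 to 0.087 for Bhlha15, -0.14 to 0.15 for Nr5a2 and -0.32 to 0.065 for Gata6. For the difference in effect they were -0.28 to 0.33 for Rbpjl and -0.10 to 0.41 for Gata6.

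Same-numbered libraries did not deviate together in every pair of any comparison. A correlation over 0.1 was found in 4 of 16 pairs, 3 of them among the 4 pairs of cerulein and PBS in Adam17 ex/ex mice, and 6 of 16 libraries correlated best with their own number. With the replicate number as a block 3333 genes were called for cerulein in WT, 2440 in Adam17 ex/ex, 749 for genotype under cerulein, 230 under PBS and 488 for the difference in effect. Under PBS the block gave Bhlha15 -0.014 and Gata6 0.042, and it changed the call of 0 members. Low counts limit Gata4, Gata6 and Onecut1. List values without the shallow libraries were added after the data were seen.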
